A study of Homo sapiens with 8 samples.

Results

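The regions described here are the strong MBD-seq peaks that were present in 1 of 8 neuroblastoma (NB) cell lines and had no counterpart in the other 7. Overlapping or touching peaks of all lines on the 22 autosomes were merged, and a merged region was kept when its peaks came from 1 line and at least 1 of them had a score of 100 or more. The region within 1 Mb of MYCN, chr2:15080672-17087129 in GRCh37, was left out. This gave 18202 regions out of 362998 merged autosomal regions, of which 362544 lay outside the MYCN region, or 5.02% of these, and each of them held a single peak. They were 8.98% of the 202635 regions found in 1 line at any score. The regions were thus chosen by their score and by their absence from the other lists, and both are given below as a description only.

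The lists came from 8 NB lines, established cultures of tumor cells, with 1 sample per line. The labels give MYCN amplification (MNA) for IMR-32, N206, CHP-902R and LA-N-2. They give MYCN as not amplified (single copy) for SK-N-AS, SJNB-1, CLB-GA and SH-SY5Y. The lines of a group serve as its replicates. Peaks covered 8.68 to 19.8% of the MYCN region among MNA lines and 1.87 to 4.76% among single copy lines, so the groups did not overlap there. The full lists ran from 70816 peaks in SJNB-1 to 112412 in LA-N-2. The lists give no read counts and the study states its depth only as a range over the lines, so the depth of a single line is unknown, and a missing peak cannot be told apart from a peak that the depth of a line did not reach.

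In MBD-seq, sheared DNA is captured by a protein domain that binds methylated CpG, and the captured fragments pile up into peaks after sequencing. DNA methylation at CpG sites of promoters, above all in CpG islands, is known to go along with silencing of the gene, while most CpGs in gene bodies and between genes are methylated in differentiated cells. Capture depends on the number of methylated CpGs in a fragment and on how much DNA of the locus is present, so a peak is not a direct reading of the methylation level.

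The regions differed widely in what they contained. The following stretches are examples and do not stand for the typical region. Each is 150 bp of the GRCh37 plus strand taken from within a region, with every CpG in capitals. The first 4 were chosen because they lie in promoter regions rich in CpG in 4 different lines, and the last because it is from the highest scoring region of IMR-32, in a crowded window on chromosome 2 described further below.
GJA3, IMR-32 (chr13:20735619-20735768): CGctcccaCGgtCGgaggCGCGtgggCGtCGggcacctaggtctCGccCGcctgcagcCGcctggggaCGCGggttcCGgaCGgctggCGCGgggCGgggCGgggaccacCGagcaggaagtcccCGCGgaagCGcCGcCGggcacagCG
NES, LA-N-2 (chr1:156646495-156646644): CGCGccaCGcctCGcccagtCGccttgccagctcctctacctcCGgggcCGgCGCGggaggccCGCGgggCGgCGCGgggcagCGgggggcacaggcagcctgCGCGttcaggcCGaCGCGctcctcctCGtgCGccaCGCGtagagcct
ENSG00000283321 and AHR, SH-SY5Y (chr7:17338896-17339045): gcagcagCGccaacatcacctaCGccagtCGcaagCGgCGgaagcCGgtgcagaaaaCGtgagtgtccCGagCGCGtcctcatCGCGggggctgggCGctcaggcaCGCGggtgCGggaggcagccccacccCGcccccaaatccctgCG
F13A1, SK-N-AS (chr6:6320289-6320438): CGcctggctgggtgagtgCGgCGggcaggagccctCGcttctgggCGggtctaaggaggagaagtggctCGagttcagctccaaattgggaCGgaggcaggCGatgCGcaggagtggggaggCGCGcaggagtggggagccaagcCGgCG
LRATD1 window, IMR-32 (chr2:14803653-14803802): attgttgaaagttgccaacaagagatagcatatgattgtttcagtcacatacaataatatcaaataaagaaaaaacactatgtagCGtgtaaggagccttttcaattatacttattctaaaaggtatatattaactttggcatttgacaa
The GJA3 stretch holds 25 CpGs, the NES stretch 24, the stretch shared by ENSG00000283321 and AHR 18 and the F13A1 stretch 13. The stretch downstream of LRATD1 holds 1 CpG, although its region had a score of 1089. The whole regions held 11.3 (GJA3), 7.90 (NES), 12.1 (ENSG00000283321 and AHR), 4.68 (F13A1) and 1.06 CpG per 100 bp (downstream of LRATD1).

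A higher score of the authors stands for a smaller p-value, and 100 corresponds to 1e-10. Most of the regions lay close to the limit. A score under 150 was found for 16893 regions (92.8%), and the median score of a line ran from 109.7 in SK-N-AS to 115.0 in LA-N-2. The lowest score inside the limit was 100, and the highest left outside among regions of 1 line was 99.99. Between scores of 95 and 100 there were 488 left-out regions in SJNB-1, the fewest, and 1291 in CHP-902R, the most. Between 100 and 105 there were 187 regions in SJNB-1, the fewest, and 1306 in LA-N-2, the most. Only 269 regions had a score of 200 or more, and 243 of these were in IMR-32 and LA-N-2.

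LA-N-2 had 4990 such regions, more than any other line, and SJNB-1 had 814, fewer than any other. The other MNA lines had 2527 (IMR-32), 2294 (CHP-902R) and 1795 regions (N206). The other single copy lines had 2108 (SH-SY5Y), 2093 (CLB-GA) and 1581 regions (SK-N-AS). The ranges of the groups overlapped, since N206 lay below SH-SY5Y and CLB-GA. The mean was 2902 ± 1425 regions in MNA lines (SD, n = 4) and 1649 ± 608 in single copy lines (SD, n = 4). The difference of 1252 had p = 0.114 (exact permutation of the group labels, two-sided, adjusted p = 0.4 over 4 comparisons of the groups). The smallest p that 4 lines against 4 allow is 0.0286. Without N206 the difference was 1780 with p = 0.0286 in the same exact test, and without LA-N-2 it was 652 with p = 0.229. When the 8000 highest scoring peaks of each line were taken as strong, so that the lines had equal numbers, the difference was 52 regions with p = 0.629 in that exact test. When all lists were instead shortened to the length of the shortest list, it was 1337 regions (exact test, p = 0.143).

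The same order held for the most part when the regions were set against all strong regions of a line. They made up 20.02% of the strong regions in LA-N-2, 17.6% in IMR-32, 16.2% in SK-N-AS, 16.0% in CHP-902R, 14.8% in CLB-GA, 14.4% for SH-SY5Y, 14.1% in N206 and 9.70% in SJNB-1. The MNA lines were higher by 3.15 percentage points, at 16.9 ± 2.50% against 13.8 ± 2.83% (SD, n = 4 each). The test did not detect this difference (same exact permutation test, p = 0.2, adjusted p = 0.4). The difference was 0.807 points with the 8000 highest scoring peaks of each line (exact test, p = 0.6) and 1.92 points without SJNB-1 (exact test, p = 0.343). With the lists shortened to the length of the shortest list, it was 2.83 points (exact test, p = 0.286).

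**Figure D1:**
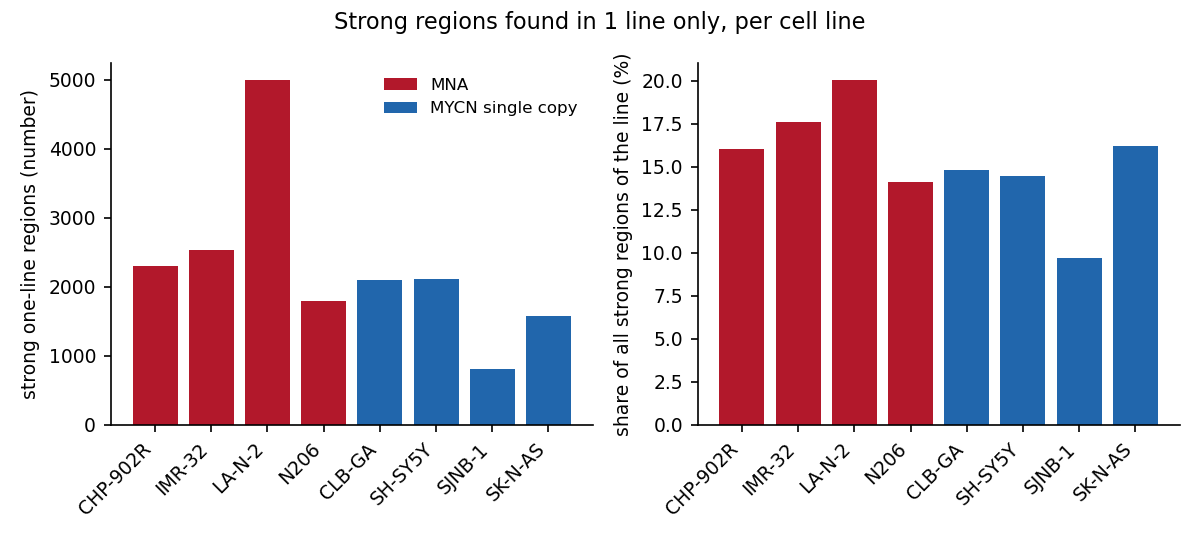
Bars give, for each line, the number of strong regions found in that line only (left) and their percent among all strong regions of the line (right), red for MNA and blue for MYCN single copy lines. LA-N-2 was highest in both with 4990 regions and 20.02%, SJNB-1 lowest in both with 814 and 9.70%, and the 2 groups overlapped.

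A peak of another line was often not far away. The median distance from a region to the nearest peak of another line was 3124 bp over all lines, with CLB-GA lowest at 2281 bp and LA-N-2 highest at 3514 bp. Of all regions, 11.7% lay within 500 bp of such a peak and 83.6% within 10000 bp.

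Compared with the strong peaks that the same line shared with at least 1 other line, the regions of 1 line held fewer CpGs. Their median was 2.92 CpG per 100 bp in CLB-GA, 2.46 in SJNB-1, 2.37 in LA-N-2, 2.36 in CHP-902R, 2.17 in IMR-32, 2.13 in SH-SY5Y, 2.04 in N206 and 1.97 in SK-N-AS. In every line this was above the autosomal mean of 0.997 CpG per 100 bp and below the shared strong peaks of that line, whose medians ran from 2.69 in SK-N-AS to 3.61 in SJNB-1. The mean difference was -0.77 CpG per 100 bp, lower in 8 of 8 lines (two-sided exact sign-flip permutation test over lines, p = 0.00781, adjusted p = 0.00781 over 5 measures). This p is the smallest that 8 lines allow. The same shared region can count in several lines, and the regions of 1 line depend on the lists of all others. The differences of the 8 lines are therefore not independent here or in the measures below, which the test does not take into account. Under 2 CpG per 100 bp lay from 10.3% of the regions in CLB-GA to 52.2% in SK-N-AS.

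Fewer of the regions lay at promoters, defined here as a window that begins 1500 bp upstream of a transcription start site (TSS) and ends 1000 bp downstream, for every TSS of the GENCODE annotation. IMR-32 had 16.0% of its regions there, SJNB-1 14.3%, SH-SY5Y 13.5%, CLB-GA 11.6% and LA-N-2 11.1%. The lowest were SK-N-AS with 9.87%, CHP-902R with 9.85% and N206 with 9.53%. The shared strong peaks had 21.1 to 27.3%, so the 2 classes did not overlap. The mean difference was -11.7 percentage points and negative in 8 of 8 lines (same exact test, p = 0.00781, adjusted p = 0.00781). When only peaks of at most 500 bp were compared, it was -4.23 points with the same p.

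CpG islands, the CpG-rich stretches at which many human promoters lie, were called for a peak with at least 50% GC and an observed over expected CpG ratio of at least 0.6. No minimum length was set, so short peaks could meet the criteria, such as the NPRL2 region of CHP-902R with 253 bp and 10 CpGs. By these criteria 2.61% (SH-SY5Y) to 10.2% (CLB-GA) of the regions were islands, against 11.4% (SK-N-AS) to 20.6% (SJNB-1) of the shared strong peaks. The mean difference was -9.08 points and negative in 8 of 8 lines (exact test, p = 0.00781, adjusted p = 0.00781). More of them lay outside any annotated gene, by 4.16 points in the mean and in 8 of 8 lines (exact test, p = 0.00781, adjusted p = 0.00781). Of all regions, 12397 overlapped an annotated gene, and introns outside promoter windows held 44.9% (IMR-32) to 54.6% (LA-N-2) of them, against 34.6 to 44.3% of the shared strong peaks.

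The regions were also narrower than shared strong peaks, with a median width of 307 bp (CLB-GA) to 452 bp (IMR-32) against 505 bp (CLB-GA) to 717 bp (IMR-32). The rule keeps only peaks that touch no peak of another line. A narrow peak meets this more easily, so the width is in part set by the rule and is given as a description only. The sequence of the regions was less often unique. Of all windows of 45 bp, the read length, in a region, 77.4% (CLB-GA) to 86.7% (SH-SY5Y) occurred once in GRCh37, against 82.8% (LA-N-2) to 87.5% (SH-SY5Y) in shared strong peaks. The mean difference was -3.80 percentage points and negative in 8 of 8 lines (exact test, p = 0.00781, adjusted p = 0.00781). Among peaks of at most 500 bp the difference was 0.0152 points with p = 0.992 in the same exact test, and among wider peaks it was -3.99 points with p = 0.0156. The differences in CpG density (-0.51), islands (-5.16 points) and places outside genes (2.92 points) kept p = 0.00781 in that exact test for peaks of at most 500 bp. Among wider peaks CpG density (-0.77) and places outside genes (5.06 points) kept it too in the exact test. The difference in islands there was -8.97 points (exact test, p = 0.0156).

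**Figure D2:**
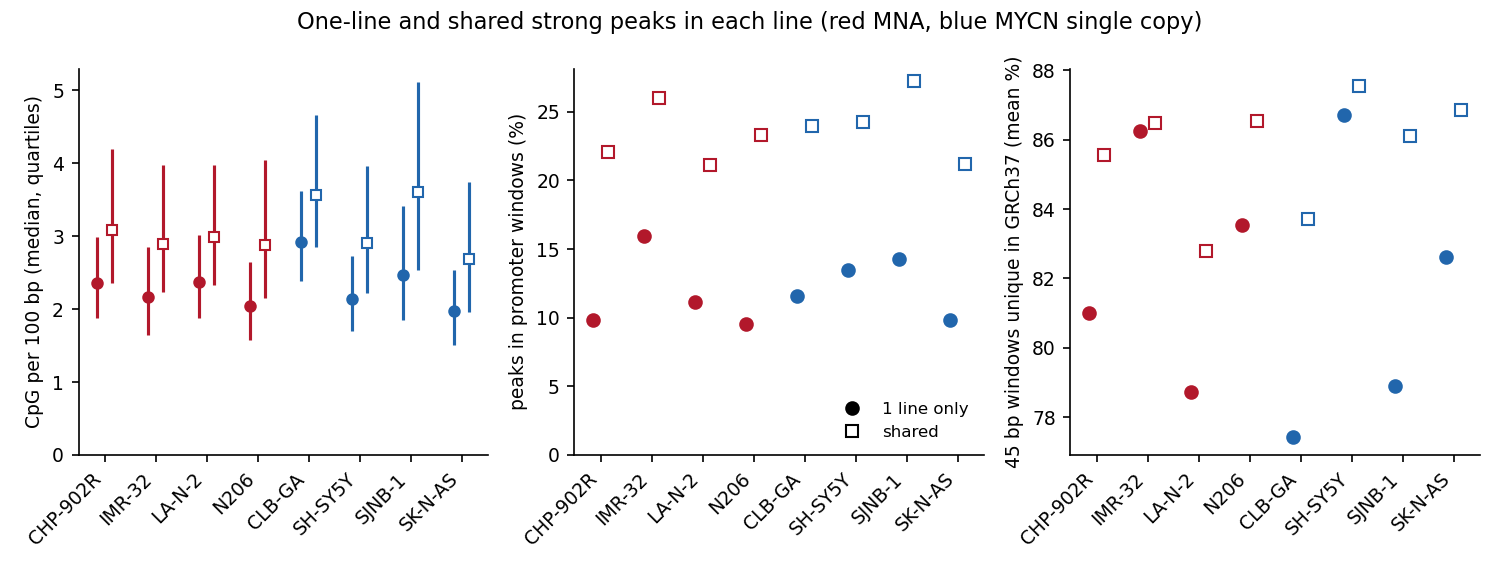
For each line, filled circles give the strong regions found in that line only and open squares its strong peaks shared with other lines, for the median CpG per 100 bp with quartiles (left), the percent in promoter windows (middle) and the mean percent of 45 bp windows that are unique in GRCh37 (right, axis not from 0). In all 3 panels every circle lies below the square of its line, from 1.97 to 2.92 against 2.69 to 3.61 CpG per 100 bp in the left panel.

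No difference in CpG density or promoter share was detected between the regions of MNA and of single copy lines. The line medians averaged 2.23 ± 0.159 CpG per 100 bp for MNA and 2.37 ± 0.421 for single copy lines (SD, n = 4 each), a difference of -0.14 (exact permutation test, two-sided, p = 0.6, adjusted p = 0.686). Promoter windows held 11.6 ± 2.99% for MNA and 12.3 ± 1.96% for single copy lines (SD, n = 4 each), a difference of -0.68 points (exact permutation test, p = 0.686, adjusted p = 0.686).

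At the level of genes, 1283 of 19222 protein-coding autosomal genes (6.67%) had a region of this kind in a promoter window. By line, these were 341 genes in LA-N-2 (1.77%), 268 in IMR-32 (1.39%), 182 for SH-SY5Y (0.947%), 151 for CLB-GA (0.786%), 118 in CHP-902R (0.614%), 109 in N206 (0.567%), 100 in SK-N-AS (0.52%) and 60 in SJNB-1 (0.312%). For 302 of the 1283 genes (23.5%) no other line had a promoter peak of any score, and for 457 genes 1 to 3 other lines had one elsewhere in the promoter windows. In 136 genes every line had a promoter peak, so a region of 1 line did not mean a promoter marked in 1 line.

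In IMR-32 the 3 genes with the highest scoring promoter regions were LRATD1, MEIS1 and GJA3. LRATD1 and MEIS1 lay in crowded windows of chromosome 2, described below. The regions of these windows had median scores of 292.5 and 220.8, against 114.8 for all regions of the line. The LRATD1 region with the highest score, chr2:14771998-14772602, lay upstream of the gene and had a score of 426 and 28 CpGs. Another LRATD1 region, chr2:14773169-14775251, met the CpG island criteria, with a score of 368 and 152 CpGs. MEIS1, which encodes a homeobox transcription factor, had a region with a score of 267 at chr2:66723226-66724041, at an internal TSS and with 1.59 CpG per 100 bp, and 6 other lines had peaks in its other promoter windows. GJA3, a gap junction gene of the lens, had a region at chr13:20735204-20736228 with a score of 251 and 116 CpGs, or 11.3 per 100 bp, and no other line had a peak in its promoter windows. Further CpG island promoters of IMR-32 with high scores were those of KCNA3, a voltage-gated potassium channel (score 233, 112 CpGs), ZNF239 (score 226) and RBP4, the plasma carrier of retinol (score 219).

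In LA-N-2 the leading genes were NES, CCDC71L and LRRC8D. NES encodes nestin, an intermediate filament protein of neural progenitor cells, and its region at chr1:156645831-156647337 spanned the TSS and part of the coding sequence, with a score of 327 and 119 CpGs. No other line had a peak in the NES promoter windows, although the nearest peak of another line was 513 bp away. CCDC71L had a region with a score of 269 and 155 CpGs at chr7:106300105-106301738, again with no promoter peak in any other line. LRRC8D, a subunit of the volume-regulated anion channel, had a region with a score of 264 at chr1:90308676-90309728, on untranslated and intronic sequence. In LRRC8D promoter windows 3 other lines had peaks.

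In CHP-902R the leading genes were NPRL2, a subunit of the GATOR1 complex that restrains mTORC1 (score 168), AKAP13, an anchoring protein of protein kinase A (165), and TGM6, a transglutaminase (164). Only 44.5% of the 45 bp windows of the NPRL2 region were unique, and 100% of those of TGM6. Other lines had peaks in the promoter windows of NPRL2 (1 line), AKAP13 (6) and TGM6 (2). In N206 they were LMF1, a maturation factor of lipases (score 152), CCDC196 (152) and CCDC66 (151). The LMF1 region lay in an intron at chr16:943956-945033 and held 68 CpGs. Promoter peaks of other lines were found for LMF1 (6 lines) and CCDC66 (1), but not for CCDC196.

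Among the single copy lines, CLB-GA had GLO1, an enzyme that removes methylglyoxal (score 174), TBC1D9 (160) and APBB2, a binding partner of the amyloid precursor protein (159). The GLO1 region, chr6:38669794-38670113, lay in an intron and 58.7% of its 45 bp windows were unique. Peaks of other lines lay in the promoter windows of GLO1 (1 line), TBC1D9 (1) and APBB2 (6). SH-SY5Y had ENSG00000283321 (score 198), TCF4, a basic helix-loop-helix transcription factor (174), and BAG2, a co-chaperone (174). The first of these regions, chr7:17338297-17339115, also lay in a promoter window of AHR, the aryl hydrocarbon receptor, held 99 CpGs or 12.1 per 100 bp, and was in a promoter that had no peak in the other lines. The TCF4 region held 4 CpGs, and 7 other lines had peaks in TCF4 promoter windows. For BAG2, 2 other lines had promoter peaks. SJNB-1 had the olfactory receptor gene OR10P1 (score 160), FAM110A (155) and NUBPL, an assembly factor of mitochondrial complex I (148). No other line had a promoter peak for OR10P1, while 5 had one for FAM110A and 7 for NUBPL. SK-N-AS had F13A1, the A subunit of clotting factor XIII (score 195), ROBO1, a receptor of the SLIT guidance cues (147), and IMPA1, an inositol monophosphatase (146). The F13A1 region, chr6:6320048-6320944, lay 32097 bp from the nearest peak of any other line. For ROBO1 and for IMPA1, 1 other line had a promoter peak.

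CpG island promoters were unevenly spread over the lines. They made up 133 regions in IMR-32 (5.26% of its regions) and 97 in LA-N-2 (1.94%). The counts were 36 in CLB-GA (1.72%), 12 in SJNB-1 (1.47%), 27 in SH-SY5Y (1.28%), 21 in CHP-902R (0.915%), 15 in N206 (0.836%) and 10 in SK-N-AS (0.633%). Of the promoter regions of IMR-32, 32.9% were islands, against 6.41 to 17.5% in the other lines. IMR-32 did not stand apart in the same way among shared strong peaks, of which island promoters were 7.74%, within the 5.20 to 9.86% of the other lines.

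The width of the peaks moved with this. In IMR-32 41.8% of the regions were wider than 500 bp, against 10.9% in CLB-GA to 25.1% in SH-SY5Y. Among regions of at most 500 bp, 0.951% were island promoters in IMR-32 and 0.190 to 1.18% in the other lines, so that IMR-32 lay within their range. Among wider regions the share was 11.3% in IMR-32, 7.80% in LA-N-2, 6.11% in CLB-GA and 0.743 to 4.54% in the other 5 lines. Among wider shared strong peaks it was 9.66% in IMR-32 and 6.39 to 12.2% in the other lines. At this width the regions of IMR-32 thus had a higher share than its shared peaks, whereas those of each other line had a lower one. The part of width in the difference between lines was not tested further. The island promoter shares by line and this split by width were chosen after the data had been seen.

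**Figure D3:**
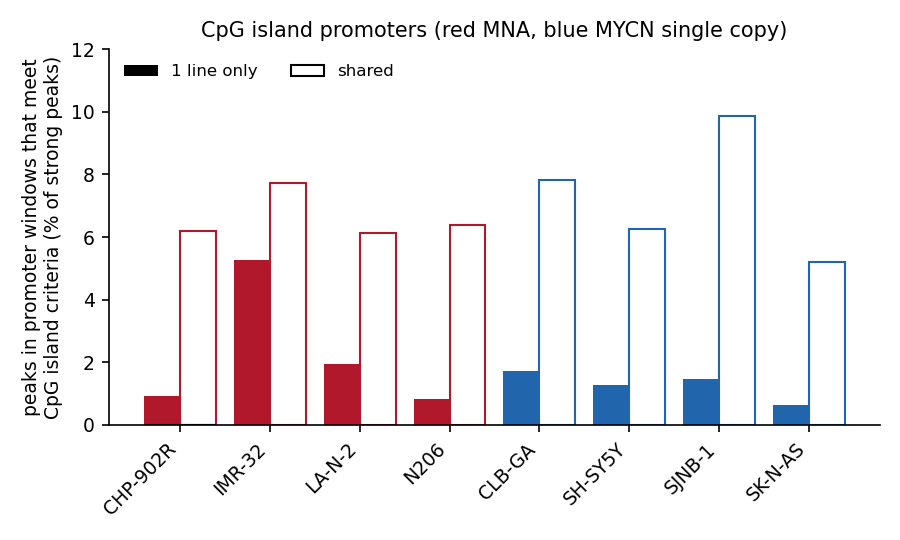
Bars give the percent of strong peaks that lie in a promoter window and meet the CpG island criteria, filled for regions found in 1 line only and open for shared peaks, red for MNA and blue for MYCN single copy lines. IMR-32 reached 5.26% among its own regions against 0.633 to 1.94% in the other lines, whereas its open bar of 7.74% lies within theirs.

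Regions of 2 lines were found for 46 of the 1283 genes, and for no gene were there regions of 3 or more lines. Whether 46 differs from what the shares of the single lines would bring was not tested. The highest mean scores among these belonged to LRRC8D, with scores of 264 in LA-N-2 and 101 in SH-SY5Y, and to NPR3, the clearance receptor of natriuretic peptides, with 138 in CHP-902R and 212 in IMR-32. The NPR3 region of IMR-32 was an island with 166 CpGs, and that of CHP-902R, 2488 bp away, held 20 CpGs. The 8 genes that followed were PTPRK, AKAP13, SPATS2L, ANKRD6, ATR, ZNF875, CDC42BPA and APP. In each of the 10 genes the regions of the 2 lines had different TSS as their nearest.

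Gene families and pathways that bear on NB or on promoter methylation were read against the 6.67% of all protein-coding genes. No share of a list was tested against that of all genes, and several lists are short. A gene with more TSS has more promoter windows in which a region can fall, and the lists were not matched for this. Of a list of 143 homeobox and PAX genes, many of which set the identity of cells during development, 16 (11.2%) had such a region, and 13 of these met the island criteria. IMR-32 had 11 of them, or 7.69% of the list against 1.39% of all genes, LA-N-2 had 4 and SH-SY5Y 2, with 1 gene counted in 2 lines. The list does not hold every homeobox gene, and MEOX2 below is not in it. Within the list, MEIS1 had the highest score and lay in a crowded window of chromosome 2. Next were DLX4 (213) and NKX6-1 (162), both in IMR-32 and both islands. HOXC6, HOXC9, HOXB2, HOXD8, HOXA5, HOXB9 and PAX6 were among the others.

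Of 50 epithelial identity genes, 11 (22%) had a region, spread over CHP-902R and LA-N-2 with 3 each, IMR-32 and SH-SY5Y with 2 each and CLB-GA with 1. They were led by DSP, the desmosomal plaque protein desmoplakin (157, IMR-32), EHF, an epithelial transcription factor (154, LA-N-2), and CDH1, the adherens junction protein E-cadherin (128, IMR-32). The DSP region was an island with 127 CpGs. That of CDH1 held 13 CpGs, lay at an internal TSS, and 5 other lines had peaks in the CDH1 promoter windows.

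Of 34 genes of the mesenchymal state, an undifferentiated state described in NB, 7 (20.6%) had a region, 4 of them in LA-N-2, 2 in SH-SY5Y and 1 in CLB-GA. The first were the homeobox genes MEOX2 (177, LA-N-2) and PRRX1 (120, LA-N-2), the latter also in the list above, and ZEB2, a repressor of epithelial genes (112, CLB-GA). Of 19 core transcription factors of the adrenergic state, the sympathetic neuron-like counterpart, 2 (10.5%) had a region, and both were in IMR-32. LMO1, a transcriptional cofactor, had a score of 112. Of 20 catecholamine genes 3 (15%) had one, namely SLC6A2, the noradrenaline transporter (108, SJNB-1), DDC, which makes dopamine (103, CHP-902R), and GCH1, which makes a cofactor of that pathway (100, IMR-32).

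Neurotransmitter receptor and ion channel genes had 23 of 261 (8.81%), with 7 each in IMR-32 and LA-N-2 and 5 in SK-N-AS. The highest were the potassium channel genes KCNA3, KCNJ8 (196, IMR-32) and KCNK5 (187, LA-N-2). Axon guidance genes had 5 of 73 (6.85%), among them NEO1, a netrin receptor (160, LA-N-2), ROBO1 and SEMA5A (143, LA-N-2). Zinc finger genes on chromosome 19 had 16 of 249 (6.43%), led by ZNF875 (146, LA-N-2), ZNF99 (146, CHP-902R) and ZNF577 (144, CLB-GA), and collagens 3 of 42 (7.14%), namely COL9A3 (156, LA-N-2), COL12A1 (108, LA-N-2) and COL22A1 (104, IMR-32). These 3 shares lay close to that of all genes.

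Other lists held few or none. Olfactory receptor genes, most of which have promoters poor in CpG, had 8 of 398 (2.01%), among them OR10P1, OR6S1 (132, SK-N-AS) and OR9A4 (123, LA-N-2). Germline genes, many of which are methylated in somatic cells, had 2 of 67 (2.99%), HORMAD1 (129, LA-N-2) and TEX101 (118, CLB-GA). Death receptor and caspase genes had 1 of 32 (3.1%), the adaptor gene TRADD (107, IMR-32). MHC class I presentation genes had 1 of 22 (4.5%), the transactivator gene NLRC5 (114, SK-N-AS). Both lists are short, and neither share was tested against that of all genes. None of the 53 clustered protocadherin genes had such a region. The same held for the 21 genes that the study singled out, a list drawn up in part from these samples. The rule leaves out every peak that overlaps or touches a peak of another line, so an empty list does not show a lack of peaks. The study reports promoters of the protocadherin beta cluster as heavily methylated in NB.

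The regions were not spread evenly along the genome in 2 lines. A window of 1 Mb held at most 10 regions in N206, 9 in CHP-902R, 8 in CLB-GA, 7 in SH-SY5Y and SK-N-AS and 4 in SJNB-1, but 81 in IMR-32 and 71 in LA-N-2. Of 2897 windows, 40 in LA-N-2 and 14 in IMR-32 held 10 regions or more, against 1 in N206 and 0 in the other 5 lines.

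All 5 windows of IMR-32 with 20 or more regions were on the short arm of chromosome 2. The fullest, chr2:67000001-68000000, held 81 regions that covered 7.19% of its length, with ETAA1, a gene of the response to replication stress, as its protein-coding gene. The next held 32 regions (69000001 to 70000000), 30 (14000001 to 15000000, with LRATD1), 30 (66000001 to 67000000, with MEIS1) and 23 (53000001 to 54000000). No other line had more than 4 regions in any of them. LA-N-2 had 71 regions in chr2:18000001-19000000, around KCNS3, a potassium channel subunit, 38 in chr1:162000001-163000000, around NOS1AP and DDR2, and 20 in chr5:8000001-9000000. The LRATD1 window of IMR-32 and the KCNS3 window of LA-N-2 lay on either side of the excluded MYCN region, of which peaks covered 19.8% in IMR-32 and 12.8% in LA-N-2.

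The 196 regions of IMR-32 in these windows differed from its other 2331. Their median CpG density was 1.02 per 100 bp against 2.23 elsewhere, close to the autosomal mean of 0.997. Their median width was 805.5 bp against 433 bp, and 1 of them was an island against 220 elsewhere. The score, by which they were in part chosen, had a median of 211 against 114, and 112 of the 146 IMR-32 regions with a score of 200 or more lay in these windows. In LA-N-2 the 129 regions in such windows had 1.44 CpG per 100 bp against 2.39 in the other 4861, and 49 of its 97 regions with a score of 200 or more lay there. Copy number was not measured in these files, and its part in the crowded windows was not tested.

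**Figure D4:**
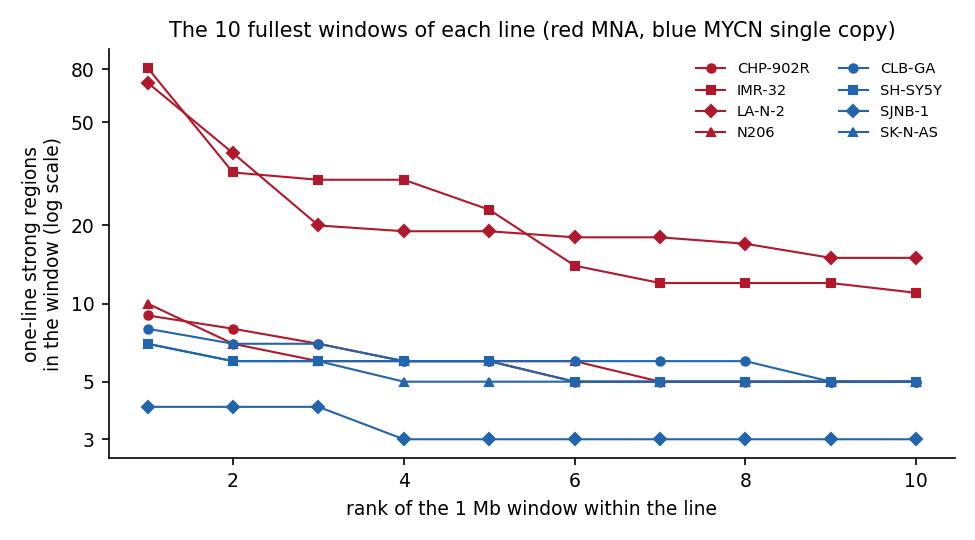
Points give the number of strong regions found in 1 line only (y axis, log scale) in the 10 fullest windows of 1 Mb of each line, ordered by rank (x axis), red for MNA and blue for MYCN single copy lines. IMR-32 begins at 81 and LA-N-2 at 71, whereas the fullest window of any other line held 10.

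Without regard to promoters, the highest scoring region of IMR-32 was chr2:14803209-14804246, 12270 bp from LRATD1, with a score of 1089 and 1.06 CpG per 100 bp. In LA-N-2 it was chr2:18596570-18597134, in a long noncoding RNA gene 53687 bp from KCNS3, with a score of 1467. In N206 it was chr9:92911986-92912407 with a score of 1026, where 18.8% of the 45 bp windows were unique, and the second in that line had 244. The highest score was 237 in SH-SY5Y, 223 in CHP-902R and, within STK17A, a kinase gene, 201 in SJNB-1. It was 241 in CLB-GA, at a place 14656 bp from ZNF831, and 241 in SK-N-AS, where the nearest protein-coding gene, NDST3, was 306873 bp away.

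By chromosome, the share of a line's regions was set against the share of its shared strong peaks. The ratio was below 1 in 8 of 8 lines on chromosomes 1, 7, 17, 19 and 22 and above 1 in 8 of 8 on chromosomes 3, 6 and 13. On chromosome 17 it ran from 0.424 to 0.686 and on chromosome 19 from 0.384 to 0.964. Single lines stood out on chromosome 2 (1.81 in IMR-32), chromosome 5 (1.61 in LA-N-2), chromosome 18 (1.79 in N206) and chromosome 13 (2.00 in SJNB-1). Of the 377 regions of IMR-32 on chromosome 2, 196 lay in its 5 crowded windows described above. On chromosome 5, LA-N-2 had 704 regions, or 14.1% of its regions, against 8.75% of its shared strong peaks.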

How the data were processed

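Methylated DNA of 8 NB cell lines was captured with a methyl-CpG binding domain and sequenced (MBD-seq), with 1 library per line. The authors mapped the reads on GRCh37 with Bowtie 0.12.7 and used MACS to call peaks, line by line. The deposited lists give the position of each peak and a score, which is -10 times the log10 of the p-value, is not normalized for depth and starts at 50, a p-value of 1e-05. Options of the peak caller and the use of an input control are not given in the sources used here. Read counts are not part of the lists, and the study gives depth only as a range over the lines, so the precision that depth gives could not be set per line.

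Peaks overlapping or touching by position were merged with Python 3.11.15, numpy 2.4.6 and pandas 2.3.3. CpG content, GC and the uniqueness of 45 bp windows were read from GRCh37, and genes and 220854 distinct TSS from GENCODE release 44 in GRCh37 coordinates. A peak overlapped a promoter window by at least 1 bp. Island criteria were applied to the peak itself, with no minimum length. Lines of the groups were compared by two-sided exact permutation of the group labels (4 comparisons), and regions of 1 line with shared strong peaks by exact sign flips over the 8 lines (5 measures), each family with Benjamini-Hochberg adjustment. The scripts were tested on simulated data. Alternatives changed the score limit, the ranking, list length, merging, the promoter window, the lines included and the MYCN region. Those without crowded windows and by peak width, and the island promoter shares by line, were chosen after seeing the data. Genes were named by rule, as the 3 promoters with the highest scores in each line and each gene list, the highest scoring regions and fullest windows of each line, and 10 genes with regions of different lines. KCNA3, ZNF239, RBP4 and further list members without values were named in addition. The regions and the gene lists were chosen with earlier results of these data known. Of the lists, MAOA, MAOB and TEX11 were left out because they are not autosomal. A few named items are not reported here.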

Additional observations from a re-analysis of the deposited data

Results flagged for a closer look

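The median width of the regions found in 1 line only was 452 bp in IMR-32, far from the 344 to 349 bp of CHP-902R, N206 and LA-N-2. Its distance to the nearest of these was 0.954 of the whole range of the 4 MNA lines, beyond what Dixon's test allows for 4 samples. In all, 20 groups of 4 lines were examined in this way, and chance flags about 1 in 20 groups. The shared strong peaks of IMR-32 were also wide, with a median of 717 bp against 575 to 669 bp in the other MNA lines. None of the 5 differences between the regions of 1 line and shared strong peaks differed between the MNA and the single copy lines (two-sided exact permutation tests, p = 0.2 to 0.914, adjusted p = 0.857 to 0.914).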

How the results depend on the processing

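Of 232 values under other settings, over 13 results, 204 kept their direction and their side of the threshold or, for total counts and island promoter shares, about their size. Size was not checked for differences, so the MNA minus single copy difference of 1252 regions counts as kept at 52. With a score of at least 150, the difference in places outside genes was 5.40 points but no longer passed (exact permutation test, p = 0.0781), the MNA minus single copy difference in promoter regions turned to 1.19 points, and 1309 regions, 120 genes and island promoter shares of 10.8% in IMR-32 and at most 5.56% in another line were found. With the 8000 highest scoring peaks of each line, these were 0.00577 points, 7636 regions, 581 genes, 7.06% and 4.80%. The MNA minus single copy difference was 188 regions with a score of at least 150 and 52 with the 8000 highest scoring peaks, and 3.65 and 0.807 points for the share of strong regions. With the lists shortened to the length of the shortest list, these differences were 1337 regions and 2.83 points. The IMR-32 share was 4.48% for scores from 100 to below 150. With TSS of protein-coding transcripts only, 813 genes were found, and the shares were 4.12% and at most 1.30%. Among peaks of at most 500 bp, the difference in unique windows turned to 0.0152 points, 721 genes were found, and the shares were 0.951% in IMR-32 and at most 1.18% elsewhere. Among wider peaks there were 4222 regions, 588 genes and shares of 11.3% and at most 7.80%. The fall in counts with the score, ranking and width settings follows from the fewer peaks they admit, that to 813 genes from the smaller set of TSS, and the cause of the other changes was not tested. Leaving out 1 line at a time, the MNA minus single copy difference ran from 652 to 1780 regions, passing without N206 only, from 1.92 to 4.40 points for the share of strong regions, from -2.60 to 0.0995 points for promoters, turning without CHP-902R or SJNB-1 (0.0396), and from -0.26 to 0.0393 CpG per 100 bp, turning without CLB-GA. Neither of these differences, in promoters or in CpG density, passed the test under any of these settings. The highest island promoter share outside IMR-32 ran from 1.88 to 2.45%. The MNA and single copy groups consist of different lines that the labels do not pair, so the groups were compared without pairing. The depth of each single list is unknown, which limits what the absence of a peak shows.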

Other observations

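The side of the TSS on which promoter regions fell varied between the lines. Among regions in windows of protein-coding genes, the midpoint lay upstream of the nearest TSS in 76 of 115 in CHP-902R (66.1%) and in 120 of 264 in IMR-32 (45.5%), with 52.0 to 59.5% in the other 6 lines. Of the 107 island regions of IMR-32 among these, 36 had their midpoint upstream, against 46 of 76 in LA-N-2. These values were seen only after the analysis and were not tested.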
